A study of Mus musculus with 18 samples.

Results

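Fc gamma receptors bind the constant part of IgG and so let a cell sense immune complexes, which are a hallmark of lupus. Fcgr1, Fcgr3 and Fcgr4 are activating receptors: they pass their signal through the common gamma chain, encoded by Fcer1g, whose phosphorylated motif (ITAM) recruits the kinase Syk. Fcgr2b is the inhibitory receptor, which carries its own inhibitory motif (ITIM) and recruits phosphatases. Neutrophils, monocytes and macrophages carry both kinds, B cells carry Fcgr2b, and natural killer (NK) cells carry Fcgr3. NZB mice are known for a variant Fcgr2b promoter with lowered expression in activated B cells.

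These 6 genes (Fcgr1, Fcgr2b, Fcgr3, Fcgr4, Fcer1g and Syk) were found by their symbols in the expression tables of sorted bone marrow progenitors, 6 of 20639 genes in all. The lupus-prone strain was NZBW/F1, a cross of NZB with NZW, and C57BL/6 was the control strain. All mice were female. LSK cells (Lin-Sca-1+c-Kit+, the compartment with stem and early progenitor cells) were profiled in 3 samples each of prediseased NZBW/F1 at 12 weeks (F1-P), diseased NZBW/F1 at 28 to 36 weeks (F1-L), C57BL/6 at 12 weeks (B6-Y) and C57BL/6 at 28 to 36 weeks (B6-O). Common myeloid progenitors (CMPs) were profiled in F1-P and F1-L, also with 3 samples a group, and no C57BL/6 CMPs were analysed here. No group carried a transgene or received an agent. Disease in F1-L was defined by proteinuria. F1-L and F1-P differed in age as well as disease, and the effects of these cannot be told apart within NZBW/F1. A legend of the study gives an n above 1 for each CMP replicate, as for pooled mice, and how many mice an LSK sample held is not given in the sources used here. The p-values measure the spread between these samples only.

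Both sorts excluded cells that stained for CD16/32, the proteins of Fcgr3 and Fcgr2b, as well as cells with CD11b, Gr-1, Ter119 or B220. The receptor transcripts described here therefore come from cells gated as negative for the protein of 2 of the 6 genes. In bulk samples, more cells that express a gene and more RNA of it per cell cannot be told apart.

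The libraries held 23772252 to 28493747 reads in LSK and 20001328 to 24761060 reads in CMPs. Values are CPM scaled by the authors, and each table was normalised separately. Kit, the receptor behind c-Kit, stood at 257 to 657 CPM in LSK and 416 to 668 CPM in CMPs. Ly6a, which encodes Sca-1, stood at 35.5 to 113 CPM in C57BL/6 LSK, 293 to 879 CPM in NZBW/F1 LSK and 1.14 to 6.7 CPM in CMPs, although the methods write the CMP gate as Sca-1+. The 11 mature neutrophil markers (granule genes such as Ngp, Camp and Ltf, with S100a8 and Ly6g), which both gates should leave out, summed to between 64.2 and 12373 CPM. Over 5000 CPM of them were found in 5 libraries: B6-Y replicate 2, B6-O replicate 3 and F1-L replicate 1 of LSK and F1-P replicates 2 and 3 of CMPs. These libraries stood apart from the others of their groups, and the plot of differences shows each with and without them. Leaving them out was chosen after seeing the data. F1-L replicate 2 of LSK, at 4905 CPM, lay just under this limit and was kept. Immunoglobulin genes took 16.8% to 36.6% of the reads in NZBW/F1 LSK and 0.301% to 4.76% in C57BL/6 LSK.

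On mouse chromosome 1 (GRCm38), Fcgr2b (chr1:170958617-170976547, minus strand), Fcgr4 (chr1:171018920-171029761, plus strand), Fcgr3 (chr1:171051174-171064935, minus strand) and Fcer1g (chr1:171229572-171234365, minus strand) lie close together. Fcgr1 lies at chr3:96282909-96293969 on the minus strand and Syk at chr13:52583173-52648792 on the plus strand. Fcgr2b, Fcgr3 and Fcgr4 are close relatives in sequence, so reads could be split between them with error, and NZB and NZW reads were aligned to a C57BL/6 reference. Their part in the values was not tested. The libraries did not mark strand, and an antisense gene (Gm38204) overlaps Fcgr2b.

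The sequence just before the start sites of the 3 activating receptor genes is shown because all 3 hold the same short motif there. The sequences are RefSeq promoter windows of GRCm38.p6, read 5′ to 3′ on the gene's strand and ending next to the start site or to the first annotated exon base. Capitals mark GAGGAA or its reverse complement TTCCTC, the core bound by PU.1, the myeloid Ets factor, and TTCNNNGAA, the site form bound by STAT factors.
Fcgr1 (chr3:96293970-96294089, minus strand): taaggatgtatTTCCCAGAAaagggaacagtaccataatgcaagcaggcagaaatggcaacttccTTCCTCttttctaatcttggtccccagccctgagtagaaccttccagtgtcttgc
Fcgr3 (chr1:171059404-171059523, minus strand, before a RefSeq start inside the GENCODE span of the gene): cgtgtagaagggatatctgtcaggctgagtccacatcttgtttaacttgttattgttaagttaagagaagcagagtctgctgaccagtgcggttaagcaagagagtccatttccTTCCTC
Fcgr4 (chr1:171018806-171018919, plus strand): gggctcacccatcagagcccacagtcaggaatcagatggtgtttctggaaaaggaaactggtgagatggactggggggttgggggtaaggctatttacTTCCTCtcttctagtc
TTCCTC began 55 bases before the Fcgr1 start site, 6 bases before that of Fcgr3 and 22 bases before that of Fcgr4. TTCCCAGAA began 109 bases before the Fcgr1 start site. In the 120 bases before a start site, GAGGAA on either strand was found in 11.6% of 32851 RefSeq windows and TTCNNNGAA in 3.15%. The windows of Fcgr2b and Fcer1g held neither, and of the 2 Syk start sites only the downstream one held GAGGAA. Annotated exons of the gene took 57 of the 120 bases for Fcgr2b, 120 for the first Syk start site, 29 for the downstream one and 16 for Fcer1g. The windows of Fcgr2b and the first Syk start site are thus not like those of the activating receptors, and no contrast is drawn from them. A match describes letters only and shows no binding.

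Levels can be compared between genes only per length of exon. The length used joins all annotated exons of a gene, 5790 bases for Fcgr2b and 1736 bases for Fcgr3. Before division by length, mean Fcgr2b was above mean Fcgr3 in F1-P LSK (11.2 and 7.05 CPM) and in F1-L LSK (22.4 and 20.7 CPM). The order of these 2 genes below rests on that length. In CPM per kb of exon, Syk and Fcer1g led in LSK and the receptors stood far below them. In F1-P LSK the mean was 45.6 ± 6.32 CPM per kb for Fcer1g, 29.3 ± 1.03 for Syk, 4.06 ± 1.73 for Fcgr3, 1.93 ± 0.697 for Fcgr2b, 0.225 ± 0.246 for Fcgr4 and 0.178 ± 0.0992 for Fcgr1 (SD, n = 3). Fcer1g and Syk did not overlap, nor did Fcgr2b with Fcgr4 or Fcgr1. Fcgr3 overlapped Fcgr2b, and Fcgr4 overlapped Fcgr1. In F1-L LSK the means were 81.9 ± 39.8 CPM per kb for Fcer1g, 32.1 ± 6.59 for Syk, 11.9 ± 8.61 for Fcgr3, 5.72 ± 3.69 for Fcgr4, 3.88 ± 1.7 for Fcgr2b and 0.871 ± 0.365 for Fcgr1, and the range of Fcgr4 overlapped those of Fcgr3 and Fcgr2b, which did not overlap each other.

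**Figure D1:**
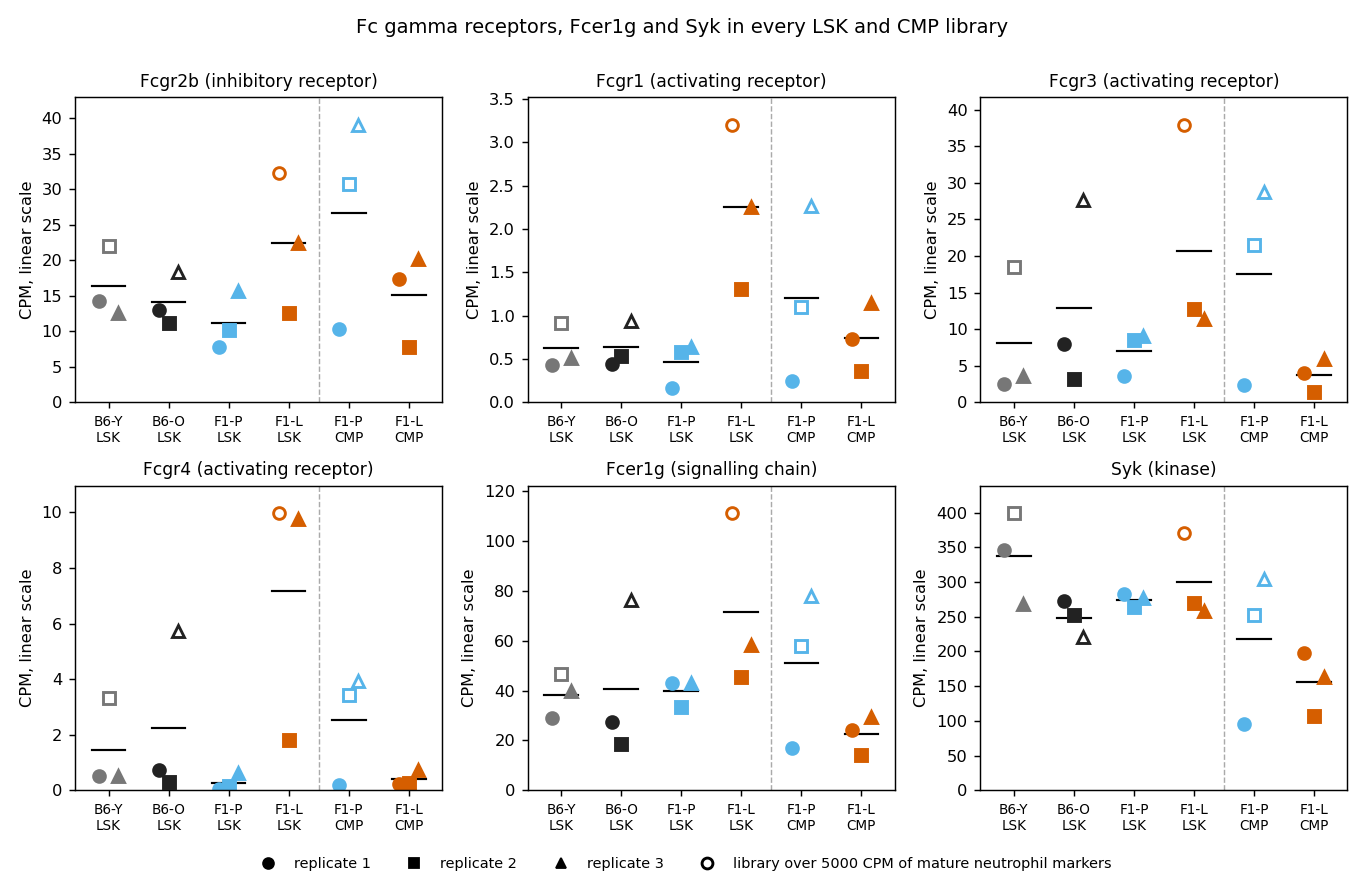
Level of each gene in CPM on a linear axis (y) in the 6 groups (x), where each point is 1 library, each black line a group mean over 3 libraries, and open points are libraries with over 5000 CPM of mature neutrophil markers. Open points are the highest of their group in all panels except B6-O in the Syk panel, and the F1-L LSK libraries stand above the F1-P LSK libraries for Fcgr1, Fcgr3, Fcgr4 and Fcer1g.

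The change with disease in LSK asks whether early progenitors of diseased mice hold more receptor RNA than those of the same strain before disease. All 6 genes had a higher mean in F1-L than in F1-P LSK, and 4 of them, the activating receptors and Fcer1g, did not overlap between the groups. Fcgr1 and Fcgr4 were at 1 CPM or more only in the 3 F1-L libraries, so they passed the filter on low values only through the group where they were high. No gene of the 6 passed the test in limma (adjusted p no higher than 0.05, change over 1.5-fold), against 0.0279% of the 14332 genes tested. Of the 4 genes that passed the filter in both groups, Fcgr2b and Fcgr3 had an unadjusted p below 0.05, higher in F1-L, against 8.58% of all genes in that direction, as had Fcgr1 and Fcgr4. Groups that did not overlap with F1-L higher were found for 10.4% of all genes. The log2(CPM + 1) scale understates the change of genes with low values.

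Fcgr4, which binds IgG2a and IgG2b complexes, stood at 0.0412, 0.175 and 0.632 CPM in F1-P (1, 3 and 13 reads) and at 9.97, 1.83 and 9.75 CPM in F1-L (249, 46 and 217 reads). All F1-L libraries were above all F1-P libraries, with replicate 2 nearest to them. The difference was 2.46 ± 0.528 on the log2(CPM + 1) scale (SE, adjusted p = 0.174 in limma). It was 2.32 to 2.65 when each F1-P replicate was left out, and without any 1 F1-L replicate the gene did not pass the filter on low values.

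Fcgr1, the high-affinity receptor, stood at 0.165, 0.584 and 0.632 CPM in F1-P (4 to 13 reads) and at 3.2, 1.31 and 2.25 CPM in F1-L (33 to 80 reads). The groups did not overlap. The mean in F1-L was 4.90 times that in F1-P, with a difference of 1.13 ± 0.26 on the log2(CPM + 1) scale (SE, adjusted p = 0.187 in limma).

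Fcgr3, the low-affinity activating receptor CD16, stood at 3.59, 8.52 and 9.04 CPM in F1-P and at 37.9, 12.7 and 11.4 CPM in F1-L. The groups did not overlap, but replicate 1 of F1-L alone stood far above the rest. The difference was 1.31 ± 0.499 on the log2(CPM + 1) scale (SE, adjusted p = 0.338 in limma) and 0.78 without that library.

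Fcgr2b, the inhibitory receptor, stood at 7.71, 10.2 and 15.6 CPM in F1-P and at 32.3, 12.6 and 22.4 CPM in F1-L. The groups overlapped, since F1-L replicate 2 lay below F1-P replicate 3. The difference was 0.91 ± 0.367 on the log2(CPM + 1) scale (SE, adjusted p = 0.367 in limma) and 0.61 without F1-L replicate 1.

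Fcer1g, the signalling chain, stood at 42.9, 33.5 and 43.2 CPM in F1-P and at 111, 45.3 and 58.4 CPM in F1-L. The lowest F1-L library lay just above the highest F1-P library. The difference was 0.73 ± 0.311 on the log2(CPM + 1) scale (SE, adjusted p = 0.39 in limma) and 0.37 without F1-L replicate 1. Syk stood at 283, 264 and 277 CPM in F1-P and at 371, 270 and 259 CPM in F1-L, with overlapping groups and a difference of 0.11 ± 0.155 on the log2(CPM + 1) scale (SE, adjusted p = 0.841 in limma).

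The count tests on the recovered reads gave different numbers of calls. edgeR's quasi-likelihood test called none of the 6 (0.0209% of all genes). edgeR's likelihood ratio test called Fcgr1 (adjusted p = 0.00239) and Fcgr4 (adjusted p = 0.000399), with 4.58% of all genes called. DESeq2 called Fcgr1 (adjusted p = 0.00929), Fcgr4 (adjusted p = 7.52e-06) and Fcgr3 (adjusted p = 0.049), with 5.12% of all genes called. The count tests used the same filter on low values, which Fcgr1 and Fcgr4 passed only through the F1-L libraries, so their calls are no independent support.

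Mature neutrophil markers moved with this comparison. They summed to 301 to 1281 CPM in F1-P and 1983 to 12373 CPM in F1-L, all 11 had an unadjusted p below 0.05, and no marker was at 0 in any library. The monocyte and macrophage markers (10 of 12 in the table) summed to 480 to 968 CPM in F1-P and 881 to 1994 CPM in F1-L. Granulocyte progenitor markers summed to 443 to 1917 CPM in F1-P and 963 to 2392 CPM in F1-L. Mast cell and basophil markers (6 of 7 in the table) summed to 59.8 to 86.7 CPM in F1-P and 137 to 281 CPM in F1-L. Gata2 is in this list, and in F1-L CMPs its mean was 138 CPM against 3.44 to 10.7 CPM for the others tested. How much of the LSK sums was Gata2 is not given here. B cell markers, of a cell type that carries Fcgr2b, summed to 304 to 433 CPM in F1-P and 168 to 219 CPM in F1-L, and plasma cell markers to 14365 to 37193 and 9497 to 12665 CPM. The part of these cell types in the differences was not tested. With the library highest in neutrophil markers left out, Fcgr1 and Fcgr4 no longer passed the filter on low values, which needs 3 libraries at 1 CPM or more.

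**Figure D2:**
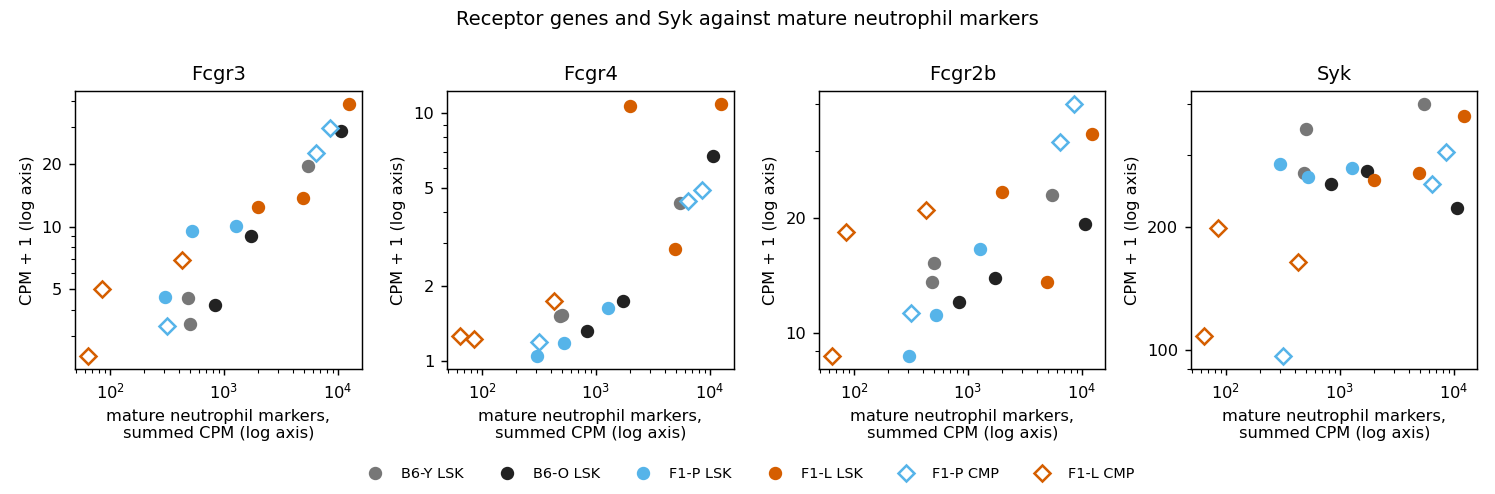
Level of Fcgr3, Fcgr4, Fcgr2b and Syk (y, CPM + 1 on a log axis) against the summed level of 11 mature neutrophil markers (x, CPM on a log axis) in all 18 libraries, where circles are LSK, diamonds are CMPs and colours are groups. Fcgr3 is highest in the 5 libraries with the most marker transcripts in both cell types, while Fcgr4 in F1-L replicate 3 of LSK reaches 9.75 CPM at 1983 CPM of markers.

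The genes differed in how they followed the markers across the 12 LSK libraries. Fcgr3 in LSK was highest in F1-L replicate 1 (37.9 CPM), B6-O replicate 3 (27.6 CPM) and B6-Y replicate 2 (18.5 CPM), which were also the 3 highest of LSK in neutrophil markers (12373, 10719 and 5441 CPM). Fcgr4 in F1-L replicate 3 reached 9.75 CPM beside 1983 CPM of neutrophil markers, whereas B6-O replicate 3 had 5.72 CPM beside 10719 CPM. F1-L replicate 3 ranked 5 of 12 in the markers and stood second to F1-L replicate 1 in Fcgr4. It was likewise second in Fcgr1 (2.25 CPM) and in Fcgr2b (22.4 CPM). F1-L replicate 2, with 4905 CPM of neutrophil markers, had 12.6 CPM of Fcgr2b, below B6-Y replicate 1 and F1-P replicate 3.

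Neutrophil markers were not the only ones to follow the receptors. As a description over the 12 LSK libraries, on log2 scales, Pearson's r with summed mature neutrophil markers was 0.92 for Fcgr3, 0.83 for Fcgr4, 0.78 for Fcgr2b, 0.73 for Fcgr1, 0.70 for Fcer1g and 0.17 for Syk. With monocyte and macrophage markers it was 0.93 for Fcgr3, 0.85 for Fcer1g, 0.72 for Fcgr1, 0.71 for Fcgr4, 0.62 for Fcgr2b and 0.07 for Syk. With granulocyte progenitor markers it was 0.82 for Fcgr2b, 0.79 for Fcgr4, 0.76 for Fcgr1, 0.68 for Fcer1g, 0.57 for Fcgr3 and 0.10 for Syk. In these progenitor markers F1-L replicate 3 ranked 1 of 12, with 2392 CPM. The marker sums share libraries and depth with the receptors, and which cells the transcripts came from was not tested.

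The genes most like a receptor across the 12 LSK libraries were named by Pearson's r on log2(CPM + 1), among genes with a mean of at least 5 CPM. For Fcgr3 these were Slfn1 (r = 0.98), I830127L07Rik (r = 0.98), Slfn2 (r = 0.97), Retnlg (r = 0.96), one of the neutrophil markers, and the chemokine gene Ccl6 (r = 0.96). For Fcgr2b these were the peroxisomal transporter gene Abcd2 (r = 0.93), Ap1s2 (r = 0.92), March1 (r = 0.92), Pirb, an inhibitory receptor (r = 0.91), and the glutathione reductase gene Gsr (r = 0.91). Ace, the angiotensin-converting enzyme gene, was the gene most like both Fcgr1 (r = 0.97) and Fcgr4 (r = 0.94), and it is named after its values were seen. The 5 of Fcgr3 and the 5 of Fcgr2b had no gene in common. Fcgr3 had 61 of 10682 genes above an r of 0.9, and Fcgr2b had 7. These libraries differ in strain, age and depth, and r is given as a description.

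Age alone was looked at in C57BL/6 LSK. No gene of the 4 that passed the filter was called in limma between B6-O and B6-Y, nor was any of the 14005 genes tested (0%). At an unadjusted p below 0.05 there were 0 of the 4, against 6.62% of all genes, and the quasi-likelihood test (0% of all genes), the likelihood ratio test (0.814%) and DESeq2 (1.48%) called none of the 4. Fcgr3 stood at 2.42, 18.5 and 3.54 CPM in B6-Y and at 8, 3.22 and 27.6 CPM in B6-O. In both groups 1 library, the one highest in neutrophil markers, stood above the others. Syk stood at 346, 399 and 269 CPM in B6-Y and at 272, 253 and 221 CPM in B6-O, and had the smallest p of the 4 (-0.43 ± 0.193 on the log2(CPM + 1) scale, SE, adjusted p = 0.787 in limma). Fcgr1 and Fcgr4 did not pass the filter and had means of 0.62 and 1.46 CPM in B6-Y and 0.636 and 2.26 CPM in B6-O.

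The change from young to old was then compared between the strains. The change in NZBW/F1 less that in C57BL/6 was positive for all 6 genes. For Syk the changes were 0.11 in NZBW/F1 and -0.43 in C57BL/6. None of the 6 passed the test of this difference in limma, and no gene of the 15084 tested did (0%). At an unadjusted p below 0.05 there were Fcgr2b, Fcgr4 and Fcgr1, of which Fcgr1 was at 1 CPM or more only in F1-L, against 2.86% of all genes in that direction. For Fcgr1 the changes differed by 1.12 ± 0.333 on the log2(CPM + 1) scale (SE, adjusted p = 0.976 in limma), for Fcgr4 by 2.26 ± 0.943 and for Fcgr2b by 1.09 ± 0.491. The quasi-likelihood test (0% of all genes called), the likelihood ratio test (0.0663%) and DESeq2 (0.192%) called none of the 6.

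**Figure D3:**
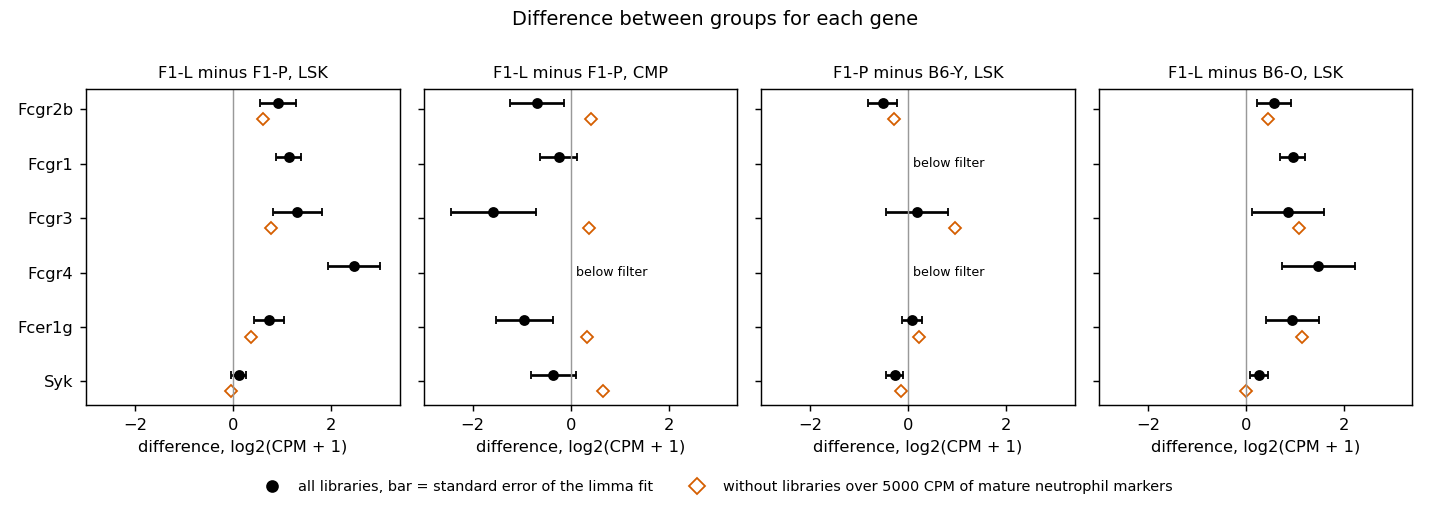
Difference between groups on the log2(CPM + 1) scale (x) for each gene (y) in 4 comparisons, where black points are the limma fit with its standard error and open diamonds the fit without the libraries over 5000 CPM of mature neutrophil markers. In CMPs all points with all libraries lie below 0, and the diamonds of Fcgr2b, Fcgr3, Fcer1g and Syk lie above 0, while in LSK the F1-L minus F1-P points lie above 0. Where a diamond is missing the gene did not pass the filter.

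Strain was compared at each age in LSK. At 12 weeks the groups overlapped for all 4 genes that passed the filter. None was called in limma, against 16.2% of the 14380 genes tested, nor by the quasi-likelihood test (15.9% of all genes), the likelihood ratio test (19.1%) or DESeq2 (19.6%), and 0 of the 4 had an unadjusted p below 0.05, against 31.3% of all genes. Fcgr2b stood at 14.3, 22 and 12.6 CPM in B6-Y against 7.71, 10.2 and 15.6 CPM in F1-P. The groups overlapped, and its difference was -0.52 ± 0.293 on the log2(CPM + 1) scale (SE, adjusted p = 0.275 in limma). Fcgr1 and Fcgr4, below the filter, had means of 0.62 ± 0.255 and 1.46 ± 1.63 CPM in B6-Y and of 0.46 ± 0.257 and 0.283 ± 0.31 CPM in F1-P (SD, n = 3).

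At 28 to 36 weeks all 6 genes had a higher mean in F1-L than in B6-O, and 0 of 6 were called in limma, against 11.6% of the 14381 genes tested. Fcgr1 alone had an unadjusted p below 0.05, against 14.8% of all genes in that direction, and it passed the filter on low values only through the F1-L libraries. Fcgr1 stood at 0.436, 0.537 and 0.936 CPM in B6-O and at 3.2, 1.31 and 2.25 CPM in F1-L, with no overlap, as for 17.5% of all genes in that direction. Its difference was 0.96 ± 0.257 on the log2(CPM + 1) scale (SE, adjusted p = 0.0552 in limma). It was called by edgeR's quasi-likelihood test (adjusted p = 0.0496), edgeR's likelihood ratio test (adjusted p = 0.00416) and DESeq2 (adjusted p = 0.00859), which called 10.8%, 15.2% and 15.9% of all genes. limma called it with all 12 LSK libraries in 1 fit (adjusted p = 0.017, 13.6% of all genes called) and without B6-O replicate 3 (adjusted p = 0.0386, 16.2% called), but not without B6-O replicate 1 (adjusted p = 0.167) or 2 (adjusted p = 0.163). Without any 1 F1-L replicate it did not pass the filter and was not tested. The comparisons of F1-L with B6-O and with F1-P share the F1-L libraries.

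Fcgr3, Fcgr4 and Fcer1g overlapped between B6-O and F1-L only through B6-O replicate 3, the C57BL/6 library highest in neutrophil markers, and Fcgr2b and Syk overlapped through B6-O replicate 1 as well or instead. Fcer1g stood at 27.4, 18.7 and 76.2 CPM in B6-O against 111, 45.3 and 58.4 CPM in F1-L. Its difference was 0.95 ± 0.537 on the log2(CPM + 1) scale (SE, adjusted p = 0.297 in limma). Without B6-O replicate 3 Fcer1g was called (1.52 ± 0.378, SE, adjusted p = 0.039 in limma), as it was without both that library and F1-L replicate 1 (1.15, adjusted p = 0.0224, with 13.1% of all genes called). The libraries then left held 1736 and 832 CPM of neutrophil markers in B6-O and 4905 and 1983 CPM in F1-L.

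Over both ages, 0 of 6 genes were called for strain in limma, against 19% of the 15084 genes tested, and Fcgr1 alone, which was at 1 CPM or more only in F1-L, had an unadjusted p below 0.05, against 41.9% of all genes. None was called by the quasi-likelihood test (21.1% of all genes), the likelihood ratio test (22.4%) or DESeq2 (21.9%). Fcgr2b differed by 0.02 ± 0.245 on the log2(CPM + 1) scale (SE, adjusted p = 0.958 in limma), with 7.71 to 32.3 CPM in NZBW/F1 and 11.1 to 22 CPM in C57BL/6. Without the 3 libraries high in neutrophil markers, Fcgr3 (1.01 on the log2(CPM + 1) scale, adjusted p = 0.0278) and Fcer1g (0.68, adjusted p = 0.0112) were called higher in NZBW/F1 by limma, among 21.2% of all genes called. The libraries left still held up to 4905 CPM of these markers in NZBW/F1 and up to 1736 CPM in C57BL/6, so the strains were not matched in them. Without B6-O replicate 3 alone, Fcer1g was called (0.79 ± 0.224, SE, adjusted p = 0.0191 in limma).

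Other cell types also differed between the strains. NK cell markers summed to 52.8 to 107 CPM in C57BL/6 LSK and 229 to 515 CPM in NZBW/F1 LSK, and 6 of 7 were called higher in NZBW/F1. Plasma cell markers (7 of 8 in the table) summed to 245 to 2458 CPM in C57BL/6 LSK and 9497 to 37193 CPM in NZBW/F1 LSK, and all 7 were called higher. B cell markers summed to 59.5 to 445 CPM in C57BL/6 LSK and 168 to 433 CPM in NZBW/F1 LSK, and 3 of 8 were called higher. Stem and progenitor markers, of the sorted cells themselves, summed to 2052 to 2946 CPM in C57BL/6 LSK and 1557 to 2307 CPM in NZBW/F1 LSK. Of these 10 markers 4 were called lower in NZBW/F1 (7.05% of all genes) and 1 higher (12%). Cd34, among them, stood at 462 to 751 CPM in C57BL/6 LSK and 169 to 295 CPM in NZBW/F1 LSK. No marker of these lists was at 0 in every library of a group, and their part in the receptor values was not tested.

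The genes around the receptor cluster were set beside it. Of the other genes within 500 kb of Fcgr2b, Fcgr4 and Fcgr3, 29 were tested for strain in LSK, of which 4 were called higher and 4 lower in NZBW/F1, where 12% of all genes were called higher and 7.05% lower. No test was made of whether these neighbours differ from the receptors or from other genes. Fcrla, an intracellular relative of the Fc receptors known from B cells, was 2.94 ± 0.431 higher on the log2(CPM + 1) scale (SE, adjusted p = 0.000325 in limma). It stood at 46.2, 128 and 120 CPM in F1-P, 41.1, 44.6 and 41.8 CPM in F1-L and 1.61 to 16.6 CPM in C57BL/6. Plasma cell markers summed to 14365, 37193 and 33422 CPM in the same F1-P libraries, 9497 to 12665 CPM in F1-L and 245 to 2458 CPM in C57BL/6. The part of plasma cells in the Fcrla values was not tested. Itln1, an intelectin gene (2.31 ± 0.115), Atf6, a sensor of stress in the endoplasmic reticulum (0.99 ± 0.147), and Gm20045 (0.63 ± 0.189) were also called higher. Olfml2b (-1.96 ± 0.423), Pcp4l1 (-1.61 ± 0.2), Cfap126 (-0.70 ± 0.174) and Nos1ap (-0.68 ± 0.235) were called lower. Fcgr2b, Fcgr4, Fcgr3 and Fcer1g, in the middle of this stretch, were not called.

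**Figure D4:**
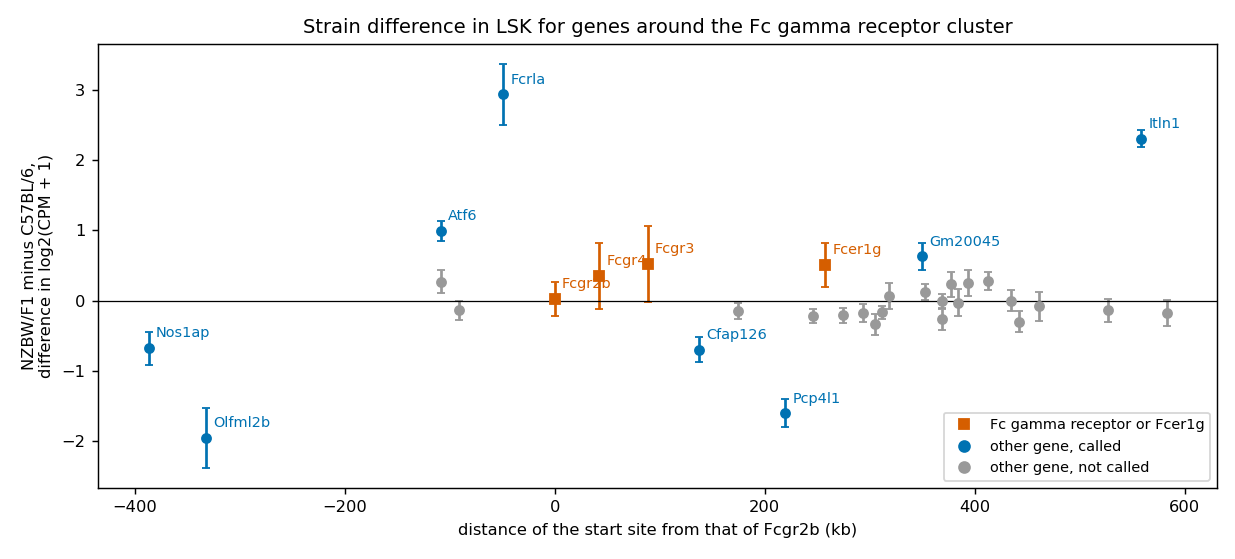
Strain difference in LSK on the log2(CPM + 1) scale (y, NZBW/F1 minus C57BL/6, with the standard error of the limma fit) for genes around the receptor cluster by the distance of their start site from that of Fcgr2b (x, kb). Squares are Fcgr2b, Fcgr4, Fcgr3 and Fcer1g, between 0.02 and 0.52, and blue points are the 8 other genes called for strain, from -1.96 for Olfml2b to 2.94 for Fcrla.

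In CMPs the question was whether the change with disease seen in LSK was also present in the next myeloid progenitor. All 5 genes that passed the filter had a lower mean in F1-L than in F1-P CMPs, and none was called in limma, against 0.00774% of the 12926 genes tested. At an unadjusted p below 0.05 there were 0 of 5 in limma, against 9.8% of all genes, and the quasi-likelihood test (0.00774% of all genes), the likelihood ratio test (2.38%) and DESeq2 (2.72%) called none. All 6 genes overlapped between the groups, with F1-P replicate 1 among or below the F1-L libraries.

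Fcgr3 stood at 2.35, 21.5 and 28.7 CPM in F1-P CMPs and at 4.05, 1.39 and 5.92 CPM in F1-L CMPs. The first F1-P library lay among the F1-L libraries. The difference was -1.58 ± 0.872 on the log2(CPM + 1) scale (SE, adjusted p = 0.599 in limma). Fcer1g stood at 16.9, 57.8 and 77.8 CPM in F1-P and at 24, 14 and 29.5 CPM in F1-L, in the same order of libraries.

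Fcgr2b stood at 10.3, 30.7 and 39 CPM in F1-P CMPs and at 17.4, 7.74 and 20.1 CPM in F1-L CMPs, a difference of -0.69 ± 0.553 on the log2(CPM + 1) scale (SE, adjusted p = 0.7 in limma). Fcgr4, below the filter, stood at 0.192, 3.44 and 3.92 CPM in F1-P (4, 78 and 100 reads) and at 0.227, 0.258 and 0.746 CPM in F1-L (5, 5 and 15 reads). Fcgr1 stood at 0.24 to 2.27 CPM in F1-P and 0.361 to 1.14 CPM in F1-L. Syk stood at 95.5, 253 and 304 CPM in F1-P and at 198, 107 and 163 CPM in F1-L. In each of these genes F1-P replicates 2 and 3 were above replicate 1.

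The same 2 libraries held the neutrophil markers of the CMPs. These summed to 315, 6453 and 8442 CPM in F1-P and to 64.2 to 431 CPM in F1-L, and all 11 markers had an unadjusted p below 0.05. Ly6g, the Gr-1 gene that the gate should leave out, stood at 1.25 to 38.7 CPM in F1-P and 0.258 to 1.94 CPM in F1-L. Monocyte and macrophage markers summed to 143, 1181 and 1585 CPM in F1-P and 103 to 290 CPM in F1-L, and B cell markers to 48 to 193 and 11.6 to 28.9 CPM. Granulocyte progenitor markers summed to 1986, 3937 and 5635 CPM in F1-P and 1498 to 4938 CPM in F1-L. Stem and progenitor markers summed to 806, 1093 and 1535 CPM in F1-P and 902 to 1264 CPM in F1-L. Erythroid and megakaryocyte markers ran the other way in F1-P (3675, 2700 and 1783 CPM), with 2926 to 4387 CPM in F1-L. The part of these cells in the receptor values was not tested. Without F1-P replicate 1, Fcgr3 was called lower in F1-L CMPs (-2.56 ± 0.452 on the log2(CPM + 1) scale, SE, adjusted p = 0.0431 in limma), among 3.4% of all genes called. Without F1-P replicates 2 and 3, with the 1 library left assumed to vary like the F1-L libraries, the differences turned to 0.38 for Fcgr3, 0.41 for Fcgr2b, 0.33 for Fcer1g and 0.66 for Syk.

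The change with disease was set between the cell types in 1 fit, each change taken within its own table. It was lower in CMPs than in LSK for all 6 genes, and 5 of 6, all but Syk, had an unadjusted p below 0.05, against 5.81% of all genes in that direction. Fcgr4 was at 1 CPM or more only in F1-L LSK and in F1-P replicates 2 and 3 of CMPs. Fcgr1 was so only there and in F1-L replicate 3 of CMPs. Both thus passed the filter mainly through the groups whose high values lower this difference. Their p-values and calls below are therefore no independent support. None of the 6 was called in limma or by edgeR's quasi-likelihood test, and neither called any of the 14526 genes tested (0%). The changes differed by -3.55 ± 0.829 on the log2(CPM + 1) scale for Fcgr4 (SE, adjusted p = 0.292 in limma), -2.89 ± 1.09 for Fcgr3 and -1.60 ± 0.719 for Fcgr2b. edgeR's likelihood ratio test called Fcgr4 (adjusted p = 0.000388) and Fcgr3 (adjusted p = 0.0316), with 3.19% of all genes called, and DESeq2 called the same genes, with 3.02%. Without F1-P replicate 1 of CMPs limma called 4 of 6 (Fcgr1, Fcgr3, Fcgr4 and Fcer1g), with 3.67% of all genes called. Without the libraries high in neutrophil markers the differences were -0.40 for Fcgr3, -0.19 for Fcgr2b and -0.04 for Fcer1g. This fit rests on F1-P replicate 1 alone in CMPs and on F1-L replicates 2 and 3 in LSK, so only sizes are given. Fcgr4, then at 1 CPM or more only in those F1-L LSK libraries, did not pass the filter and was not tested.

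Set side by side without a test, since the tables were normalised separately, mean Fcgr3 was 7.05 CPM in LSK and 17.5 CPM in CMPs of F1-P, and 20.7 CPM in LSK and 3.79 CPM in CMPs of F1-L. Mean Fcgr2b was 11.2 and 26.7 CPM in F1-P and 22.4 and 15.1 CPM in F1-L, in the same order of cell types. Mean Syk was 275 and 218 CPM in F1-P and 300 and 156 CPM in F1-L.

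The balance of activating to inhibitory receptors was taken within each library as log2 of (CPM + 0.1) of an activating receptor over (CPM + 0.1) of Fcgr2b, which depends on the scaling of the library only through the pseudocount. Fcgr1 over Fcgr2b was -4.88, -3.91 and -4.42 in F1-P LSK and -3.29, -3.17 and -3.26 in F1-L LSK. It was -4.75 to -4.36 in B6-Y and -4.61 to -4.14 in B6-O, so that the 3 F1-L libraries were above the 9 other LSK libraries. The difference of F1-L was 1.16 from F1-P and 1.06 from B6-O (two-sided exact permutation p = 0.1 for each, the smallest that 3 against 3 allows). Over both ages it was 0.59 for strain (two-sided exact permutation within age, p = 0.04, adjusted p = 0.415 over 18 ratio tests). Fcgr1 rested on 4 to 13 reads in F1-P, so the pseudocount weighs on these values: with a pseudocount of 0.5 the difference of F1-L from F1-P was 0.56 (p = 0.1, exact), and with 1 it was 0.22 (p = 0.5, exact).

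Fcgr4 over Fcgr2b was -5.79, -5.22 and -4.42 in F1-P LSK and -1.69, -2.72 and -1.19 in F1-L LSK. The groups did not overlap, and the difference was 3.28 (two-sided exact permutation p = 0.1, adjusted p = 0.415). Its size rests on the pseudocount, since Fcgr4 had 1, 3 and 13 reads in F1-P, and it was 2.14 with a pseudocount of 0.5 and 1.56 with 1. As plain ratios of CPM, with none, Fcgr4 over Fcgr2b was 0.00535, 0.0172 and 0.0405 in F1-P and 0.309, 0.145 and 0.435 in F1-L. Between F1-L and B6-O it was 1.59, with B6-O replicate 3 at -1.66 among the F1-L libraries and the other 2 at -3.95 and -4.75 (p = 0.3, exact). Fcgr3 over Fcgr2b was -1.08, -0.25 and -0.78 in F1-P LSK and 0.23, 0.01 and -0.97 in F1-L LSK, with overlapping groups and a difference of 0.46 (p = 0.3, exact). Fcgr3 passed Fcgr2b in CPM only in F1-L replicates 1 and 2 and in B6-O replicate 3.

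In CMPs Fcgr3 over Fcgr2b was -2.08, -0.51 and -0.44 in F1-P and -2.07, -2.39 and -1.74 in F1-L, a difference of -1.06 (two-sided exact permutation p = 0.3). Fcgr4 over Fcgr2b differed by -1.07 (p = 0.3, exact) and Fcgr1 over Fcgr2b by 0.38 (p = 0.3, exact). The 18 ratio tests, 3 receptors in 6 comparisons, had adjusted p-values from 0.415 to 0.87.

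**Figure D5:**
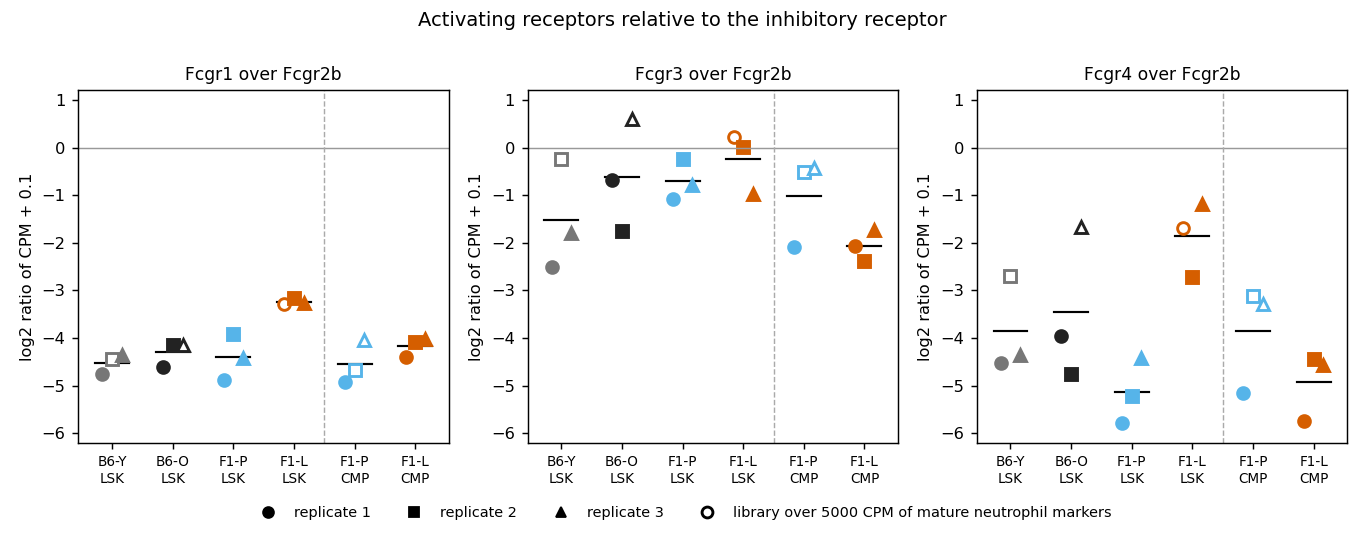
Ratio of each activating receptor to Fcgr2b (y, log2 of CPM + 0.1 over CPM + 0.1) in the 6 groups (x), where each point is 1 library, black lines are group means and open points are libraries with over 5000 CPM of mature neutrophil markers. For Fcgr1 the F1-L LSK libraries lie between -3.29 and -3.17, above all other LSK libraries, and for Fcgr3 the open points are the highest of their groups.

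The wider pathway was described by 6 lists with 80 genes, of which 65 to 69 were tested in a comparison. In F1-L against F1-P LSK 0 of 68 were called in limma (0.0279% of all genes were) or by the quasi-likelihood test (0.0209%). The likelihood ratio test called 22 higher and 1 lower (4.58% of all genes in either direction), and DESeq2 21 higher and 1 lower (5.12%). In limma 27 of the 68 had an unadjusted p below 0.05 with F1-L higher, against 8.58% of all genes, and 4 with F1-L lower. The lists differed in their medians on the log2(CPM + 1) scale. Of 11 other ITIM receptors 10 had a positive difference and 7 an unadjusted p below 0.05, at 8.58% of all genes with that direction and p. The median was 1.32 for 10 genes of immune complex uptake (complement and its receptors) and 1.05 for 9 ITAM partners, against -0.01 over all genes. For 23 genes of activating signalling it was 0.14, for 7 of inhibitory signalling -0.06 and for 8 other Fc receptors 0.08. The smallest p were those of the ITIM receptors Cd300a, with 10.4 ± 4.04 CPM in F1-P and 30.7 ± 7.89 CPM in F1-L (SD, n = 3), and Cd22, and of the complement gene C1qa, which is also among the monocyte and macrophage markers, each with an adjusted p of 0.172 in limma. In CMPs 0 of 65 were called in limma (0.00774% of all genes were) or by the quasi-likelihood test (0.00774%). The likelihood ratio test called 12 lower (2.38% of all genes in either direction) and DESeq2 14 (2.72%). In limma 3 had an unadjusted p below 0.05 with F1-L higher and 13 with F1-L lower, against 9.8% of all genes in both directions together. The medians were -1.43 for ITIM receptors, -1.28 for immune complex uptake and -1.29 for ITAM partners, against 0.04 over all genes. They were -0.21 for activating signalling, -0.01 for inhibitory signalling and 0.09 for other Fc receptors. There the smallest p were those of Fcrla, Lilrb4a, an ITIM receptor, and Fcrl1, with adjusted p of 0.353, 0.405 and 0.424 in limma.

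Strain called 5 of 69 pathway genes higher and 5 lower over both ages, at 12% and 7.05% of all genes in these directions. Inppl1, the lipid phosphatase SHIP2 related to the SHIP1 that Fcgr2b recruits, stood at 15.9, 19.2 and 17.5 CPM in B6-Y and 19.7, 20.3 and 24.4 CPM in B6-O. It stood at 55.9, 53.2 and 56.7 CPM in F1-P and 70.8, 61.6 and 61.3 CPM in F1-L, with no overlap between the strains. Its difference was 1.58 ± 0.0893 on the log2(CPM + 1) scale (SE, adjusted p = 1.56e-07 in limma), and it was 1.61 at 12 weeks and 1.55 at 28 to 36 weeks. In CMPs of NZBW/F1 Inppl1 stood at 49.9 to 63.6 CPM.

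Gab2, an adaptor downstream of activating receptors, was called lower in NZBW/F1 (23.9 ± 7.43 CPM against 48.4 ± 9.66 CPM in C57BL/6, SD, n = 6 each, -1.02 ± 0.151 on the log2(CPM + 1) scale). Among the ITIM receptors Pecam1 (-0.64 ± 0.118) and among the ITAM partners Clec4e (-0.75 ± 0.257) were called lower, and the integrin chain Itgb2 (1.21 ± 0.322) was called higher. At single ages Clec4e was called lower only at 12 weeks, with 3.17 to 5.98 CPM in F1-P and 12.5 to 14.8 CPM in B6-Y. At 28 to 36 weeks it stood at 33.3, 9.86 and 28.3 CPM in F1-L and 20.2, 24.9 and 18.6 CPM in B6-O (0.01 ± 0.421 on the log2(CPM + 1) scale, SE, adjusted p = 0.993 in limma), where all 9 ITAM partners tested had a positive difference and none was called. Its change with age differed between the strains by 1.51 ± 0.513 (SE, adjusted p = 0.976 in limma). At 12 weeks 3 of 66 pathway genes were called higher (10% of all genes), Fcrla, Inppl1 and the ITAM chain Cd247 (0.92 ± 0.225), and 9 lower (6.18% of all genes), among them the ITAM partners Cd300lb (-1.75 ± 0.422), Clec4e and Siglech (-1.49 ± 0.136). At 28 to 36 weeks 4 of 69 were called higher (7.84% of all genes) and 0 lower (3.75%): Fcrla (2.83 ± 0.624), Inppl1, C1qa (1.77 ± 0.387) and the ITIM receptor Sirpa (0.96 ± 0.238).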

How the data were processed

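RNA of sorted LSK (12 samples) and CMPs (6 samples) was sequenced. The authors prepared TruSeq libraries, aligned single-end reads with STAR 2.6 to mm10 and counted them per gene with HTSeq. The deposited values are a signal: CPM scaled by the authors with a factor per sample, so that columns summed to 832403 to 1387186 in LSK and 967456 to 1033223 in CMPs. In each of them 100% of the values were whole multiples of 1 read (within 0.01 of a read), and these reads were used for the count tests. Groups were taken from the labels. The 6 genes and all lists were chosen with earlier results of these data known.

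limma 3.58.1 (R 4.3.3) with a trend was run on log2(CPM + 1) for genes with at least 1 CPM in at least 3 samples of the fit, with the Benjamini-Hochberg adjustment over all genes tested. Genes were called where the adjusted p was no higher than 0.05 and the change over 1.5-fold, the thresholds of the study's methods. Only these thresholds are shared: the authors tested with edgeR (glmFit), so the limma counts do not follow their test. The design used here assumed plain CPM. Pathway genes were named where called (at most 3 in each direction where over 6 were), and otherwise by the 3 smallest p. Ratios were tested by two-sided exact permutation. edgeR 4.0.16 and DESeq2 1.42.0 on the recovered reads, other pseudocounts, filters, scalings, fits with the replicate number as a block, 1 fit of all 12 LSK samples and leaving out each replicate were the alternatives. The scripts were tested on simulated data. Identifiers were matched to GENCODE M21 (GRCm38) for 18916 of 19780 genes in LSK and 17596 of 18428 in CMPs, and the others were tested without a name. Exon lengths came from the same annotation.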

Additional observations from a re-analysis of the deposited data

How the results depend on the processing

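In LSK, F1-L minus F1-P had 4 genes called in limma. This count was 26 with all 12 LSK samples in 1 fit, 657 with edgeR's likelihood ratio test, 734 with DESeq2, 2 with median-of-ratios scaling, 0 with the replicate number as a block, 2 without the libraries high in neutrophil markers (an alternative chosen after seeing the data) and 0 to 25 when each replicate was left out. F1-P minus B6-Y had 2331 genes called and 927 to 2229 with each replicate left out, the lowest without F1-P replicate 2. F1-L minus B6-O had 1667, with 978 at a mean of at least 5 CPM and 448 to 2285 with each replicate left out. B6-O minus B6-Y had 0, with 207 by DESeq2, 114 by the likelihood ratio test, 13 with all 12 samples in 1 fit, 57 without the neutrophil-high libraries and 0 to 48 with each replicate left out. CMPs had 1, with 351 by DESeq2, 308 by the likelihood ratio test, 0 at a mean of at least 5 CPM, 0 with the replicate block, 0 without the neutrophil-high libraries and 0 to 434 with each replicate left out, the highest without F1-P replicate 1. Strain had 2869, and 1878 at a mean of at least 5 CPM. The stage by strain difference had 0, with 29 by DESeq2, 10 by the likelihood ratio test, 1 without the neutrophil-high libraries and 0 to 1 with each replicate left out. The stage by cell type difference had 0, with 438 by DESeq2, 464 by the likelihood ratio test, 2 without the neutrophil-high libraries and 0 to 531 with each replicate left out, the highest without F1-P CMP replicate 1. The cause of these changes was not tested.

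Directions that turned were those of small differences or of values resting on 1 or 2 libraries. With the quasi-likelihood test, the likelihood ratio test and DESeq2, F1-P minus B6-Y turned for Fcgr3 (-0.20, -0.20 and -0.18), B6-O minus B6-Y for Fcer1g (0.06, 0.06 and 0.04) and strain for Fcgr4 (-0.36, -0.35 and -0.31), and strain for Syk was 0.02 with DESeq2 and with median-of-ratios scaling. Without the neutrophil-high libraries Syk turned to -0.05 in F1-L minus F1-P LSK and to 0.71 in the stage by cell type difference, and CMPs turned for Fcgr2b (0.41), Fcgr3 (0.38), Fcer1g (0.33), Syk (0.66) and the ratios to Fcgr2b of Fcgr3 (0.01) and Fcgr4 (0.23). The strain ratio of Fcgr1 to Fcgr2b was then 0.66 (exact permutation p = 0.133) and that of Fcgr3 1.10 (exact permutation p = 0.05). With each replicate left out, F1-L minus F1-P LSK ran from -0.05 to 0.21 for Syk, F1-P minus B6-Y from -0.31 to 0.95 for Fcgr3, from -0.12 to 0.22 for Fcer1g and from -0.13 to 0.36 for the Fcgr1 ratio, and B6-O minus B6-Y from -0.37 to 0.04 for Fcgr2b, from -0.12 to 1.38 for Fcgr3, from -0.71 to 0.27 for Fcer1g and from -0.50 to 1.05 for the Fcgr4 ratio. Strain ran from -0.13 to 0.19 for Fcgr2b, from -0.09 to 0.05 for Syk, from 0.46 to 0.71 for the Fcgr1 ratio and from -0.17 to 0.60 for the Fcgr4 ratio, the stage by strain difference from -0.08 to 1.43 for Fcgr3, and F1-L minus B6-O from -0.19 to 0.98 for the Fcgr3 ratio.

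Of the pairs of samples with the same replicate number, 8 of 21 had a correlation of their deviations over 0.1, and the 21 ran from -0.454 to 0.622. Pairs with different numbers ran from -0.779 to 0.761. Whether the replicate number marks a pairing was not tested. With the replicate block none of the 6 genes was called in any comparison, as without it. Fcgr1 and Fcgr4 rest on few reads in most LSK libraries, and they fell below the filter on low values, and so were not tested, between the C57BL/6 groups and between F1-P and B6-Y.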
